A study of Mus musculus with 16 samples.

Results

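Dendritic cells (DCs) that have matured present antigen together with a second set of surface signals, and 9 genes that encode such signals were followed here in liver-draining lymph nodes (LN) of mice with bile duct injury. These were the CD28 ligands Cd80 and Cd86, the TNF receptor family member Cd40, the maturation marker Cd83, the adhesion ligand Icam1, the PD-1 ligands Cd274 (PD-L1) and Pdcd1lg2 (PD-L2), and the TNF family ligands Tnfsf4 (OX40L) and Tnfsf9 (4-1BBL). They were taken as a named set of 9 of the 32285 genes measured, by a rule that uses no measured value, although earlier results of these data were known when the set was chosen. Their RNA was summed over the cells of each class in each library. CITE-seq, which reads RNA and antibody tags from the same single cells, had been run on 3 LN libraries, and 18524 cells were kept: 6200 at day 0 (D0), 5936 at day 5 (D5) and 6388 at day 19 (D19).

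All 3 libraries came from C57BL/6J mice. D0 was the control without diet days, and the D5 and D19 mice had been fed DDC (3,5-diethoxycarbonyl-1,4-dihydrocollidine) at 0.1% of the chow, a diet that injures bile ducts and causes cholestasis. The library titled D5 is described as D6 elsewhere in the labels and in the study's methods. Hepatoduodenal and celiac LNs were pooled and digested with collagenase, and sorted fractions (live singlets, Cd45+ Cd11c-, Cd45+ Cd11c+, Pdpn+ and Cd45- Pdpn-) were mixed in equal parts before loading. The mix sets the shares of cell classes, so no class share is read as a share of the LN. The study's methods give male mice for single-cell sequencing and an age of 6 to 12 weeks for mice in general, and neither the age nor the number of mice was given for each library. Each day was 1 library, so day and library cannot be told apart, there is no replicate and no test between days, and every interval given is an exact 95% interval for counting error only.

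T cells need a signal through CD28 besides that through the antigen receptor, and CD80 and CD86 on DCs give it. CD40 receives the signal of CD40L from helper T cells and raises the costimulatory state of the DC, ICAM-1 holds the T cell through the integrin LFA-1, and OX40L and 4-1BBL prolong T cell responses. PD-L1 and PD-L2 act through PD-1 and restrain them, and CD83 keeps MHC class II and CD86 at the cell surface.

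Mature DCs were cells with at least 1 UMI (unique molecular identifier, a counted molecule) of Ccr7, the receptor that guides DCs to LNs, and of Fscn1, an actin bundler of mature DCs. The gate held 286, 463 and 896 cells at D0, D5 and D19, after 103, 130 and 117 further cells had been left out, mostly because they also passed the T or B cell gate. Conventional DCs type 1 (cDC1) had at least 2 UMIs of Xcr1 and Clec9a together (150, 55 and 61 cells), plasmacytoid DCs (pDC) at least 2 of Siglech (222, 91 and 138 cells), and B cells at least 1 each of Cd79a and Ms4a1 (1814, 2903 and 1419 cells). All 10 mature DC markers were past 2-fold above the rest in each library, as were 7, 7 and 8 of 8 cDC1 markers, 8 of 8 pDC markers and 7 of 7 B cell markers. The gate genes are among those markers. Median UMIs per mature DC were 6553, 7650 and 4325, and the deeper cDC1 had 12929.5, 11739 and 8417. T cell markers summed to 174, 60.0 and 62.0 CPM (UMIs of a gene scaled to 1000000 UMIs of the class) in mature DCs and B cell markers to 88.6, 75.4 and 31.8 CPM, with none of the 7 of either list at 0, and their part in the values below was not tested. The libraries shared 8 to 11 cell barcodes per pair.

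The mature DCs were split by antibody. A cell was CD301b+ or XCR1+ when that antibody took at least 0.1 of all its antibody UMIs, CD301b (encoded by Mgl2) being a lectin of a type 2 DC subset and XCR1 the chemokine receptor of cDC1. CD80 is the one member with an antibody in the 11-antibody panel. The 3 tags on which these readouts rest, each 15 bases and the same in every library, are shown because subset and protein level were both decided by counting them:
CD80: gacccggtgtcattt
CD301b: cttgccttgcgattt
XCR1: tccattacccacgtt
Any pair of these 3 tags differed at 8 or more positions. The CD301b+ cells numbered 32, 52 and 240 at D0, D5 and D19 (11.2%, 11.2% and 26.8% of mature DCs), the XCR1+ cells 66, 57 and 164 (23.1%, 12.3% and 18.3%), and the double negative cells 188, 354 and 491. A single cell at D19 passed for both. Double negative means only that neither antibody reached a share of 0.1. These cells carried means of 16.9, 16.4 and 15.8 CD301b UMIs per cell, against 1.94, 1.86 and 1.53 in XCR1+ cells. Their XCR1 means were 7.90, 8.97 and 5.74 UMIs, against 3.66, 5.58 and 2.33 in CD301b+ cells. CD11b alone took 44.4%, 56.4% and 62.1% of their antibody UMIs. The antibodies and not the RNA carry this split: CD301b+ cells held 0, 5 and 1 Mgl2 UMIs, and XCR1+ cells 5, 1 and 17 Xcr1 UMIs.

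Mature DCs stood above cDC1 and pDC in most members in all 3 libraries. A member is called past 2-fold here when the difference of log2(CPM + 10) was at least 1 in size, the interval of the plain ratio left out equality, and it had at least 20 UMIs over both classes. Adding 10 CPM draws low genes towards 0, so the scale understates their differences. Against cDC1, 6 of 8 members with enough UMIs were past 2-fold higher in mature DCs at D0, 6 of 8 at D5 and 5 of 8 at D19, where 8.59%, 9% and 9.91% of all genes were past 2-fold higher. Against pDC the counts were 8, 8 and 7 of 8, with 9.31%, 9.46% and 10.1% of all genes. The 8 at D5 include Pdcd1lg2 at 1.03, which came as low as 0.53 in other settings. That count was 7 without the doublet filter or with Ccr7 and Fscn1 at 2 UMIs, among others. Of 10 genes induced by tissue dissociation, 4, 6 and 4 were also past 2-fold higher in mature DCs than in pDC (medians 0.66, 1.59 and 0.83), against 0, 1 and 0 above cDC1 (0.22, 0.37 and -0.37), and their part in the member counts was not tested. Cd40, Cd83, Icam1, Cd274 and Tnfsf9 were past 2-fold above cDC1 in each library. When every cell was thinned to 1000 UMIs before the gates, the count against cDC1 came to 3, 0 and 0, with 20, 3 and 6 cDC1 left.

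The CD28 ligands differed less regularly, with Cd80 past 2-fold between mature DCs and cDC1 in 1 library and Cd86 in none. Cd80 was at 17.0 CPM (interval 11.7 to 23.9, 33 UMIs) in mature DCs at D0, 38.5 (32.5 to 45.3, 145 UMIs) at D5 and 19.6 (15.6 to 24.3, 83 UMIs) at D19. In cDC1 it was at 12.1, 12.4 and 11.1 CPM. Mature DCs and cDC1 overlapped at D0 and D19, and D5 alone was past 2-fold, with a log2 difference of 1.11. That call rests on 9 UMIs in cDC1 and was lost with 20 CPM added (0.85). Cd86 was at 56.7 CPM (46.6 to 68.3), 98.5 (88.7 to 109) and 69.6 (61.9 to 78.0) in mature DCs at D0, D5 and D19. In cDC1 Cd86 was at 95.4 (82.3 to 110), 55.2 (39.4 to 75.1) and 86.9 CPM (63.9 to 116). So at D0 Cd86 RNA was higher in cDC1 than in mature DCs, at D5 lower, and at D19 the intervals overlapped, with log2 differences of -0.66, 0.73 and -0.28 that did not reach 2-fold in any library. The pDC held 1.08 to 4.51 CPM of Cd80 and 5.07 to 7.89 CPM of Cd86, below the mature DC intervals at every day.

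Cd40, which carries the helper T cell's signal into the DC, was at 155 CPM (138 to 173, 300 UMIs), 118 (107 to 129, 444 UMIs) and 129 (118 to 140, 546 UMIs) in mature DCs at D0, D5 and D19. cDC1 were at 30.8, 16.6 and 20.3 CPM and pDC at 4.32, 5.63 and 6.33 CPM, far below at each day. Cd83 was read most deeply of the 9, with 1733, 2053 and 2405 UMIs in mature DCs, or 893 CPM (851 to 936), 545 (522 to 569) and 567 (545 to 590). It was higher at D0 than on either day of diet, with no overlap of intervals, and a UMI of it was seen in 82.2%, 86.0% and 76.9% of mature DCs. cDC1 were at 386, 159 and 255 CPM of Cd83, log2 differences of 1.19, 1.72 and 1.12 below mature DCs. Icam1, the ligand of LFA-1, was at 232 CPM (211 to 255), 227 (212 to 243) and 161 (149 to 173) in mature DCs, with D19 the lowest, and at 61.1, 40.0 and 61.0 CPM in cDC1.

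Of the PD-1 ligands, Cd274 had the largest difference from cDC1 among the 8 members at D0 and D5. It was at 152 CPM (135 to 170), 111 (100 to 122) and 94.8 (85.8 to 105) in mature DCs at D0, D5 and D19, against 4.04, 11.0 and 14.8 CPM in cDC1, where each library held 8 UMIs. Those UMIs came from 6 cDC1 at D0, a single cell (1) at D5 and 4 cells at D19. The log2 differences were 3.53, 2.52 and 2.08. Pdcd1lg2 was at 23.2 CPM (16.9 to 31.0), 10.4 (7.36 to 14.2) and 9.43 (6.74 to 12.8) in mature DCs. In cDC1 there was no Pdcd1lg2 UMI at D0, 2 UMIs at D5 and none at D19. With 3 counts in place of 0 at D0, the mature DC point value was 15.3-fold that of cDC1, which is not a lower bound. The interval of the D0 zero in cDC1 reached 1.86 CPM, below the mature DC interval. In B cells Pdcd1lg2 was at 36.6, 34.5 and 45.5 CPM, above the mature DC interval in all 3 libraries.

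Of the TNF family ligands, Tnfsf9 was at 115 CPM (101 to 132, 224 UMIs), 66.6 (58.6 to 75.4, 251 UMIs) and 106 (96.3 to 116, 449 UMIs) in mature DCs, lowest at D5. cDC1 were at 36.4, 8.28 and 22.2 CPM, and pDC at 45.3, 7.89 and 22.8 CPM, with the same library lowest in both. Tnfsf9 UMIs were held by few cells, 24.5%, 20.1% and 16.2% of mature DCs, at a mean of 0.783, 0.542 and 0.501 UMIs per cell over all of them. Tnfsf4 was hardly seen: 0 UMIs in the 286 mature DCs at D0, where a limit of 3 counts in place of 0 comes to 1.55 CPM and to 1.05% of cells with a UMI, 15 UMIs in 11 cells at D5 and 10 UMIs in 9 cells at D19. No Tnfsf4 UMI was counted in cDC1 or pDC on any day. The intervals of these zeros reached 5.09 and 6.82 CPM in cDC1 and 4.16 and 4.67 CPM in pDC at D5 and D19. The mature DC levels of 3.98 and 2.36 CPM lay below these limits, so no difference is read.

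**Figure D1:**
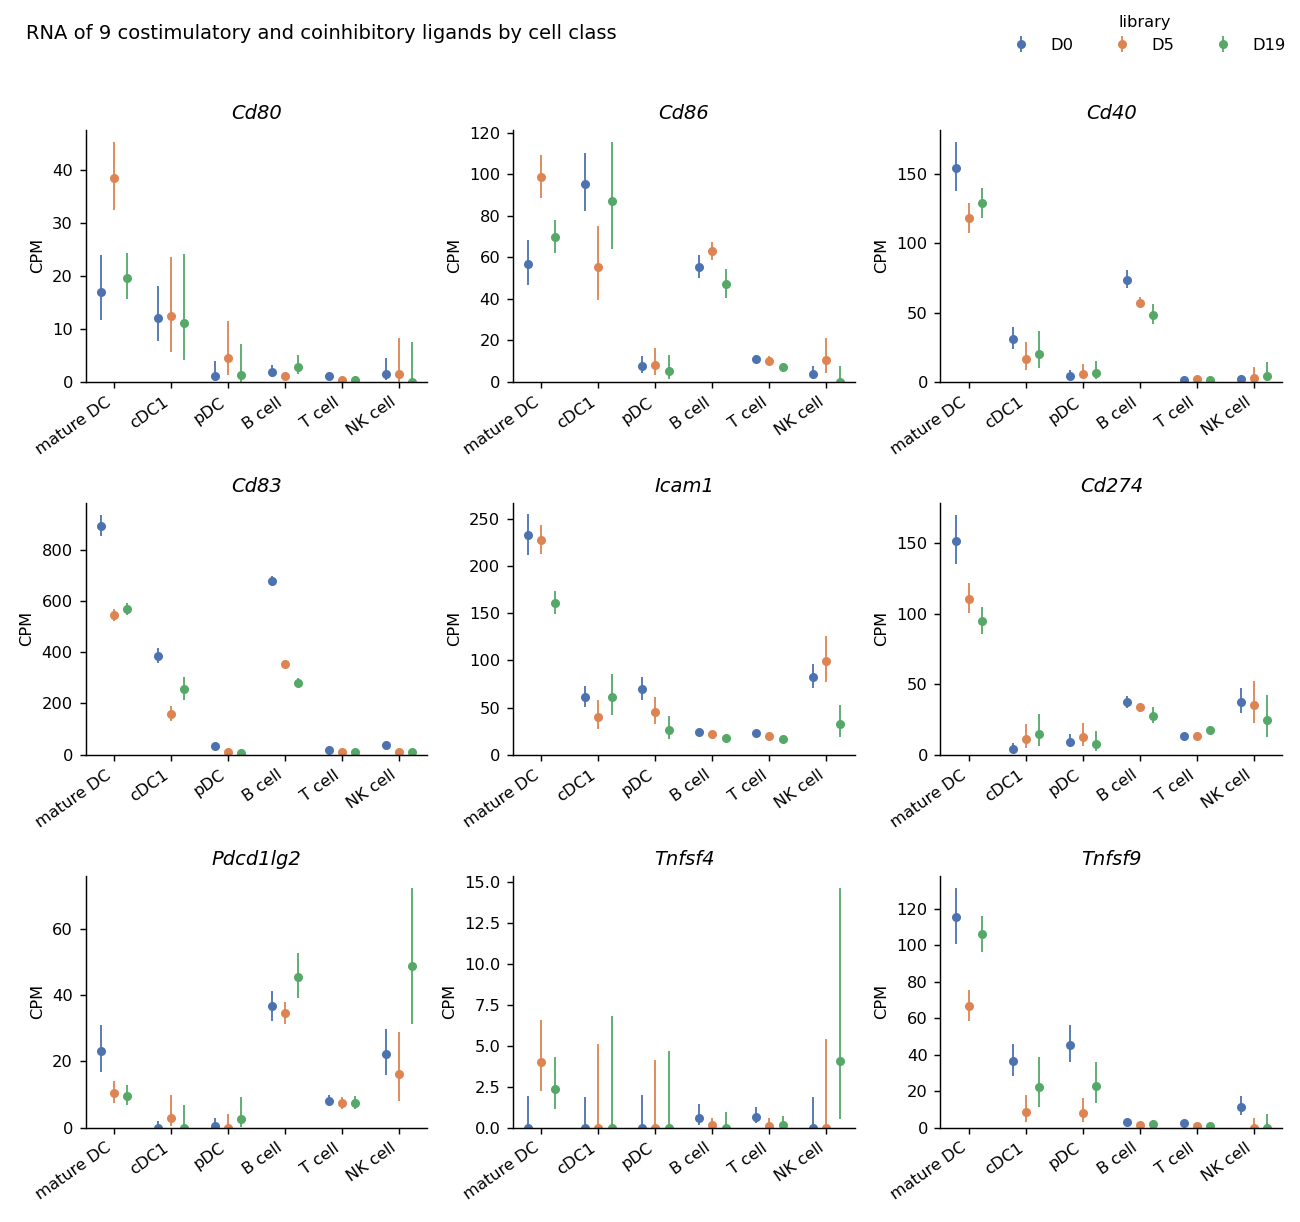
RNA level of each of the 9 genes in CPM (y axis, its own scale for each gene) in 6 cell classes (x axis) at D0, D5 and D19; points are sums over the cells of a class in 1 library and bars are exact 95% Poisson intervals. Mature DCs are the highest of these 6 classes for Cd40, Cd83, Icam1, Cd274 and Tnfsf9 in each library, whereas B cells are above mature DCs for Pdcd1lg2.

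B cells, the other antigen-presenting class with many cells, had a different profile. Mature DCs were past 2-fold above B cells for Cd80, Icam1, Cd274 and Tnfsf9 in every library, and for Cd40 at D19, with 10.4%, 9.99% and 10.5% of all genes past 2-fold higher at D0, D5 and D19. With 20 CPM added the Cd80 call was lost at D0 (0.76) and at D19 (0.79). Dissociation genes were past 2-fold above B cells too, 5, 7 and 4 of them (medians 0.96, 1.20 and 0.97), and their part was not tested. Tnfsf9 was at 2.83, 1.39 and 2.08 CPM in B cells, and Cd80 at 1.84, 1.08 and 2.86 CPM. Cd86 was at 55.5 CPM (50.2 to 61.3), 62.8 (58.6 to 67.3) and 47.1 (40.5 to 54.4) in B cells. Against mature DCs the interval of its ratio included equality at D0, while at D5 and D19 mature DCs were higher without reaching 2-fold (log2 differences 0.57 and 0.48). Cd83 reached 677, 355 and 280 CPM in B cells and Cd40 73.8, 57.2 and 48.4 CPM, second after mature DCs in each library among the 6 classes drawn. For Pdcd1lg2 mature DCs were past 2-fold lower than B cells at D5 (log2 difference -1.13; 7.1% of all genes lower) and D19 (-1.51; 8.6%), but not at D0 (-0.49).

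A small gate for resident type 2 DCs (Cd209a, Clec10a and related genes; 60, 21 and 14 cells) overlapped the mature DCs in several members. Tnfsf9 was at 152 CPM (124 to 185) in these cells at D0, 96.2 (61.6 to 143) at D5 and 340 (234 to 478, 33 UMIs) at D19. These levels were above the mature DC interval in each library, while the intervals of the 2 classes overlapped at D0 and D5 and not at D19. Cd80 at D0 was at 19.7 CPM (10.5 to 33.7). Cd40 was at 47.1 CPM (32.0 to 66.8) at D0, 144 (101 to 199.7) at D5 and 41.3 (11.2 to 106, 4 UMIs) at D19. It was thus below the mature DCs at D0 and D19, while at D5 it was the higher level of the 2 classes, with intervals that overlapped. Icam1 was at 86.5 CPM (65.5 to 112), 164 (118 to 223) and 51.6 (16.7 to 120, 5 UMIs), below the mature DCs at D0 and D19 and overlapping them at D5. Since the gates take cells in a fixed order with mature DCs first, a type 2 DC with Ccr7 and Fscn1 is counted as mature.

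Free RNA, read from barcodes with 1 to 100 UMIs, held these transcripts too. It held 329, 198 and 252 CPM of Cd83 and 29.6, 26.6 and 42.0 CPM of Cd274 at D0, D5 and D19. For Pdcd1lg2 it held 15.3, 20.4 and 16.4 CPM, which at D5 and D19 was above the level in mature DCs (10.4 and 9.43 CPM). T cells, which should lack most of these ligands, had a Cd83 UMI in 4.46%, 3.82% and 2.22% of cells, a Cd80 UMI in 0.551%, 0.221% and 0.170%, and a Tnfsf9 UMI in 1.42%, 0.441% and 0.455%, at median depths of 5501.5, 6407 and 3829.5 UMIs. The shares in mature DCs were above these for all 3 genes in each library. For Tnfsf4 the T cell shares were 0.322%, 0.0735% and 0.0568%. Mature DCs carried a UMI of a median of 3, 3 and 2 of the 9 members per cell, cDC1 of 2, 1 and 1, and T cells of 0. After thinning to 1000 UMIs the mean number of members per mature DC was 1.09, 0.950 and 0.857.

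Across days, most members differed in mature DCs by less than 2-fold but by more than counting error. The interval of the ratio left out equality for 7 of 8 members in D5 against D0, 5 of 9 in D19 against D5 and 5 of 8 in D19 against D0. The share of all genes with such an interval was not computed, so these counts are not read as particular to the members. None of the members was past 2-fold in D5 against D0 (0 of 8), in D19 against D5 (0 of 9) or in D19 against D0 (0 of 8), where 1.01%, 1.41% and 3.58% of all genes were, so a count of 0 is near that of all genes. The median log2 difference of the members was -0.39, -0.18 and -0.38 in these comparisons, against 0.04, -0.06 and -0.01 for all genes used. In D5 against D0, 6 of the 8 values were negative.

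Of the 8 members with enough UMIs, Cd80 and Cd86 were higher at D5 than at D0. Cd80 was 2.26-fold higher at D5 on the plain ratio (log2 interval 0.63 to 1.77), which is a log2 difference of 0.84 with 10 CPM added, so it falls just short of the rule. With 1 CPM added Cd80 and Pdcd1lg2 passed, in opposite directions. The share of mature DCs with a Cd80 UMI was 8.74% (5.74 to 12.6), 18.8% (15.3 to 22.7) and 6.25% (4.76 to 8.04) at D0, D5 and D19, and after thinning 1.75%, 3.67% and 1.90%. Cd86 was 1.74-fold higher at D5 than at D0 (log2 interval 0.49 to 1.12). At D19 the intervals of both against D0 included equality, with plain log2 ratios to D0 of 0.20 (-0.40 to 0.83) for Cd80 and 0.30 (-0.03 to 0.62) for Cd86.

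Cd83, Cd274, Pdcd1lg2, Tnfsf9 and Cd40 were lower at D5 than at D0. The log2 differences were -0.70 for Cd83, -0.42 for Cd274, -0.71 for Pdcd1lg2 and for Tnfsf9, and -0.36 for Cd40. Icam1 at D5 had a plain log2 ratio to D0 of -0.03, with equality inside its interval (-0.20 to 0.14), and was lower at D19 (-0.53, interval -0.70 to -0.36). At D19 the interval of Tnfsf9 against D0 included equality (-0.12, interval -0.36 to 0.11), whereas Cd40, Cd83, Cd274 and Pdcd1lg2 were still below D0, with log2 differences of -0.25, -0.65, -0.63 and -0.77 against D0. Median depth per mature DC was higher at D5 and lower at D19 than at D0, and the part of depth was not tested.

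Lower Cd83 than at D0 was also measured outside the mature DCs. Against D0, cDC1 were past 2-fold lower at D5 (386 to 159 CPM, log2 difference -1.23, with 1.2% of all genes past 2-fold lower), pDC at D5 (33.4 to 10.1 CPM, -1.11, with 0.938%) and at D19 (7.60 CPM, -1.30, with 3.13%), and B cells at D19 (677 to 280 CPM, -1.24, with 0.816%). Tnfsf9 was past 2-fold lower at D5 than at D0 in cDC1 (-1.34) and in pDC (-1.63), and Icam1 at D19 in pDC (69.6 to 26.6 CPM, -1.12). Dissociation genes were lower in these comparisons too, but not only there. Of the 10, 5 were past 2-fold lower in mature DCs at D5 than at D0 and 6 at D19, with medians of -0.94 and -1.11. In cDC1 6 were past 2-fold lower at D5 (median -1.23), in pDC 8 at D5 (-1.77) and 10 at D19 (-2.21), and in B cells 4 at D19 (-0.82). Where no member was past 2-fold, 5 were lower in B cells at D5 (-0.95) and 4 in cDC1 at D19 (-0.54), both against D0. From D5 to D19, 6 were lower in pDC (-1.19) and 2 in mature DCs (-0.38). Tnfsf9 was higher at D19 than at D5 in both, at 22.8 against 7.89 CPM and 106 against 66.6 CPM. Hspa1a, a heat shock chaperone of that list, was at 995, 162 and 6.37 CPM in mature DCs at D0, D5 and D19, and the part of these genes in the levels of Cd83, Icam1 and Tnfsf9 was not tested.

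Within mature DCs, the CD301b+ and XCR1+ cells differed in Tnfsf9 in all 3 libraries. CD301b+ cells were at 203 CPM (151 to 267) at D0, 61.4 (40.8 to 88.8) at D5 and 146 (125 to 169) at D19. XCR1+ cells were at 29.7 CPM (14.2 to 54.6), 17.7 (7.65 to 34.9) and 58.3 (43.1 to 77.1). The intervals did not overlap at any day, and the log2 differences were 2.42, 1.37 and 1.19. The UMIs came from 11 of 32 CD301b+ against 6 of 66 XCR1+ cells at D0, 13 of 52 against 6 of 57 at D5, and 51 of 240 against 15 of 164 at D19. At D5 the call rests on 28 against 8 UMIs, and it is lost without the doublet filter (0.94), by less than the rounding of the threshold without the cells holding lymphocyte RNA, and where at least 50 UMIs are asked for. At D19 the call is lost with an antibody share of 0.20 (0.96).

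**Figure D2:**
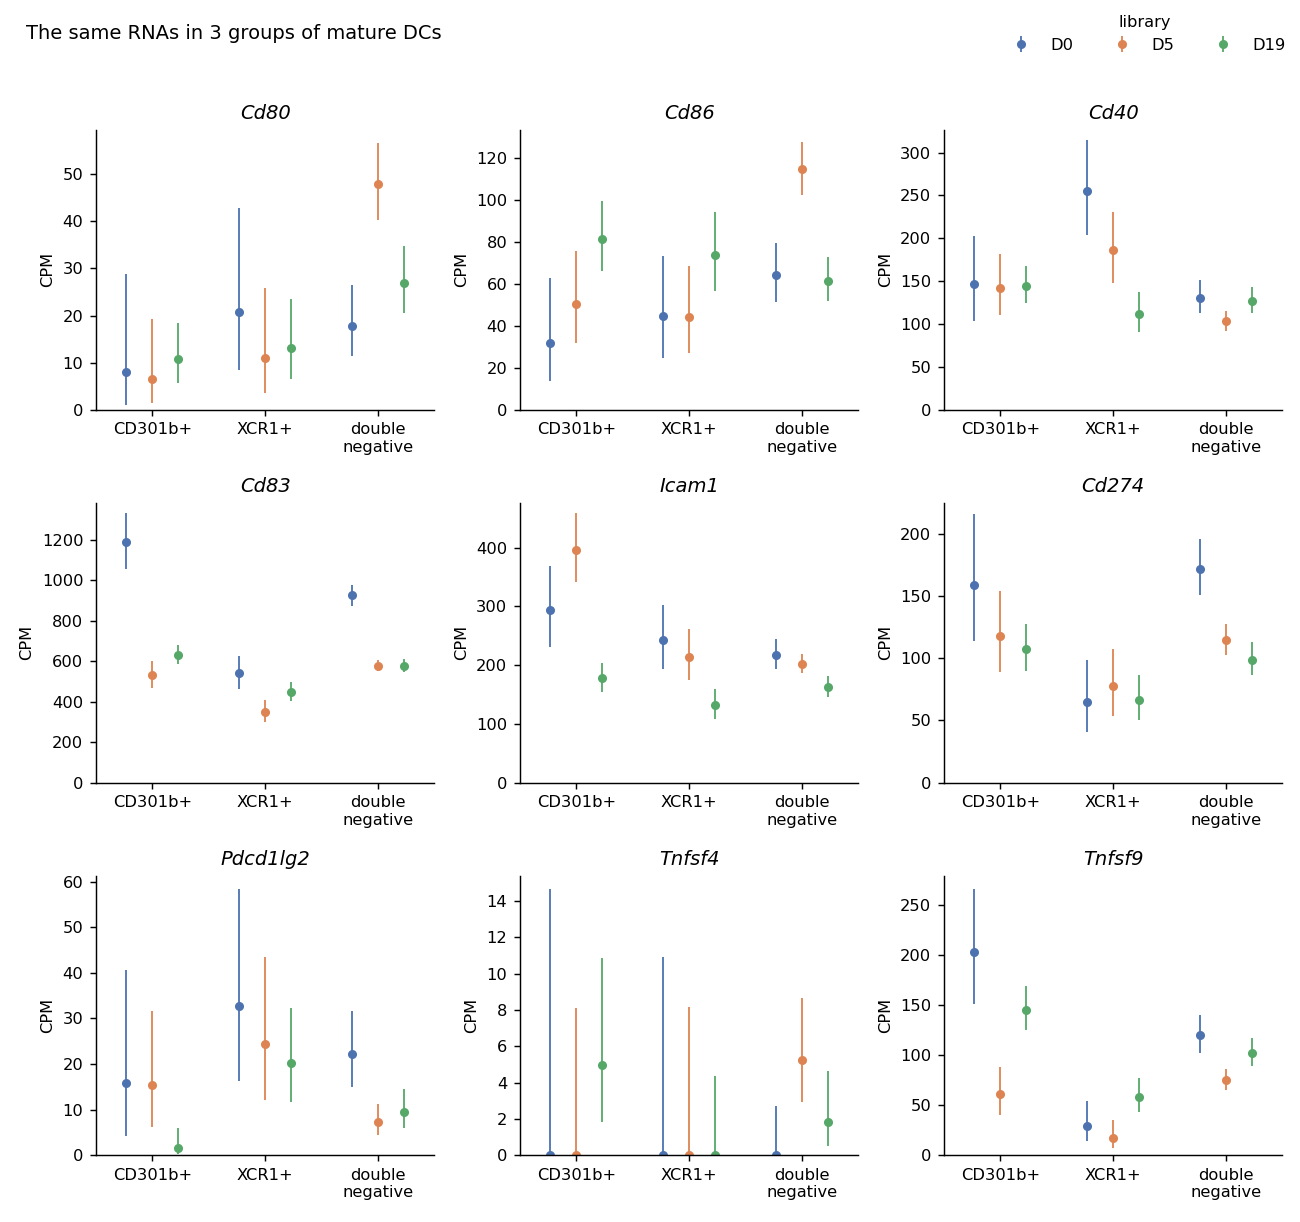
RNA level of each of the 9 genes in CPM (y axis, its own scale for each gene) in CD301b+, XCR1+ and double negative mature DCs (x axis) at D0, D5 and D19; points are sums over the cells of a group in 1 library and bars are exact 95% Poisson intervals. Tnfsf9 is above XCR1+ in CD301b+ cells in all 3 libraries, and Cd80 and Cd86 are highest in the double negative cells of D5.

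Cd83 and Cd274 passed the rule between these subsets at D0 only, and neither call held throughout. With Ccr7 and Fscn1 at 2 UMIs both were lost (0.98 for Cd83 and 0.96 for Cd274), and with an antibody share of 0.20 that of Cd83 was lost (0.89). Cd83 was at 1189 CPM (1058 to 1332) in CD301b+ and 540 (464 to 624) in XCR1+ cells at D0, 531 against 350 at D5, and 632 against 447 at D19. Cd274 was at 159 against 65.3 CPM at D0, 118 against 77.5 at D5 and 107 against 66.6 at D19. Both were thus higher in CD301b+ cells at every day, with intervals of the ratio that left out equality except for Cd274 at D5 (log2 -0.03 to 1.27). In all, 3 of 6 members with enough UMIs were past 2-fold higher in CD301b+ cells at D0, 1 of 6 at D5 and 1 of 7 at D19, where 7.75%, 6.81% and 3.37% of all genes were. Of the 10 dissociation genes 5, 4 and 4 were also past 2-fold higher in CD301b+ than in XCR1+ cells, with medians of 0.96, 0.80 and 0.99, and their part in the differences of Tnfsf9, Cd83 and Cd274 was not tested. Atf3, a stress-induced transcription factor on that list, was at 1257 against 217 CPM at D0. At D0 the XCR1+ cells were also shallower, with a median of 3963.5 UMIs against 8099.

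Cd40 did not keep its order. It was at 147 CPM (104 to 203) in CD301b+ and 255 (204 to 315) in XCR1+ cells at D0, 143 against 186 at D5, and 145 against 112 at D19. CD301b+ cells thus stayed near 145 CPM and XCR1+ cells came down, past 2-fold from D0 to D19 (log2 difference -1.12; 3.18% of all genes lower). Icam1 was higher in CD301b+ cells at D5, 397 CPM (341 to 459) against 215 (174 to 262), without reaching 2-fold, and was past 2-fold lower in CD301b+ cells at D19 than at D5 (178 CPM, -1.11; 2.65% of all genes lower), whereas Tnfsf9 was past 2-fold higher (1.12; 1.99% of all genes higher). Within CD301b+ cells Cd83 (-1.15) and Tnfsf9 (-1.58) were past 2-fold lower at D5 than at D0 (2.3% of all genes lower), and Cd86 was past 2-fold higher at D19 than at D0, at 31.8, 50.4 and 81.6 CPM across D0, D5 and D19 (1.13; 5.21% of all genes higher), the D0 level resting on 8 UMIs. In XCR1+ cells Tnfsf9 was past 2-fold higher at D19 than at D5 (1.30; 2.81% of all genes higher). Of the 10 dissociation genes, 4 were past 2-fold lower in CD301b+ cells at D5 than at D0 (median -0.64, with none of the 10 above 0), and at D19 against D5 2 were lower (median 0.11). In XCR1+ cells 2 were higher and 3 lower at D19 than at D5 (0.33), and 1 was higher and 3 lower at D19 than at D0 (-0.29). Their part in these changes of members was not tested.

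Pdcd1lg2 ran the other way but was seldom read. XCR1+ cells held 11, 11 and 17 UMIs (32.6, 24.4 and 20.2 CPM) and CD301b+ cells 4, 7 and 2 UMIs (15.9, 15.4 and 1.66 CPM), fewer than 20 over both groups in each library, so no call was made. At D19 the interval of the log2 ratio was -6.76 to -1.53, and at D0 and D5 it included equality. Tnfsf4 had no UMI in XCR1+ cells in any library and 6 UMIs in CD301b+ cells at D19.

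**Figure D3:**
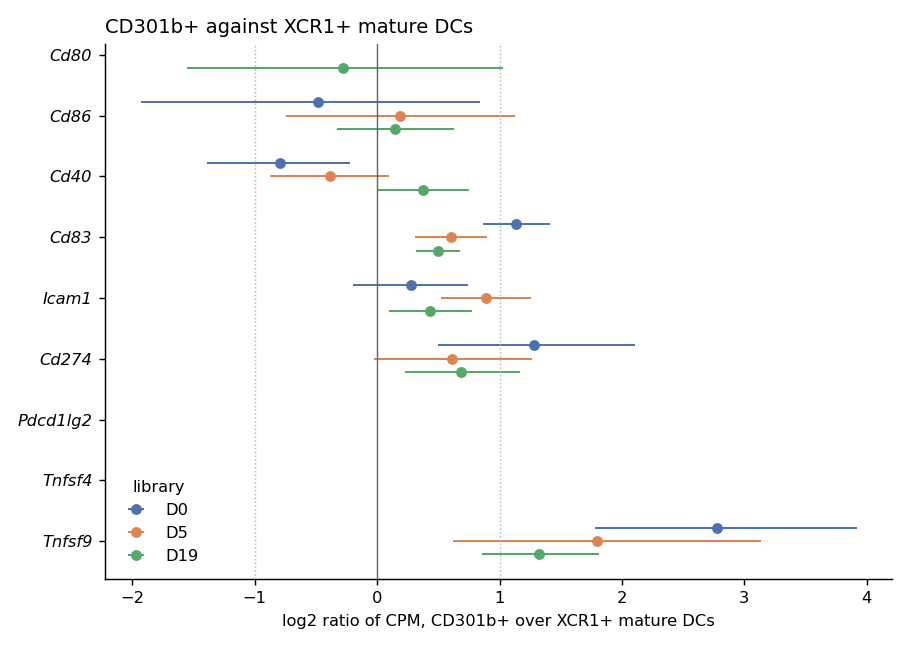
Plain log2 ratio of CPM between CD301b+ and XCR1+ mature DCs (x axis) for the 9 genes (y axis) at D0, D5 and D19; points are ratios within 1 library, bars are exact conditional 95% intervals, dotted lines mark 2-fold, and genes with fewer than 20 UMIs over both groups have no point. Tnfsf9 and Cd83 lie to the right of 0 in each library, and Cd40 lies to the left at D0 and to the right at D19.

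Among the 3 groups of mature DCs at D5, the CD28 ligand RNAs were highest in the double negative cells. Cd80 was at 17.7 CPM (11.4 to 26.4), 47.9 (40.2 to 56.6) and 26.9 (20.5 to 34.7) in these cells at D0, D5 and D19, past 2-fold higher at D5 than at D0 (log2 difference 1.06, with 0.548% of all genes past 2-fold higher). At D5 they were above CD301b+ cells (6.58 CPM, 3 UMIs; log2 difference 1.80) and XCR1+ cells (11.1 CPM, 5 UMIs; 1.46), with 2.11% and 7.74% of all genes past 2-fold higher. Cd86 was at 64.3, 115 and 61.6 CPM, and at D5 it too was past 2-fold above CD301b+ (1.04) and XCR1+ cells (1.20). All 15 Tnfsf4 UMIs of D5 mature DCs were in double negative cells, which were 76.5% of those mature DCs, so no difference between the groups is read from this. Against XCR1+ cells, Tnfsf9 was past 2-fold higher in double negative cells at D0 (121 CPM; 15.6% of all genes higher) and D5 (75.2 CPM), and at D19 the difference was 0.72 (103 CPM). Cd274 was past 2-fold higher too at D0 (172 CPM, 1.28). Dissociation genes were also past 2-fold higher in double negative than in XCR1+ cells, 9 of 10 at D0 (median 1.51), 6 of 10 at D5 (1.37) and 2 of 8 with enough UMIs at D19 (0.79), and their part in these differences was not tested.

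The double negative cells were mostly CD11b+ by antibody. By a share of 0.1 or more, a split chosen after the values had been seen, 159, 299 and 455 of them were CD11b+. Cd80 RNA at D5 was at 45.0 CPM (36.9 to 54.2) in the CD11b+ and 65.5 CPM (43.2 to 95.3) in the CD11b- double negative cells, so the intervals overlapped. They did not overlap for Tnfsf9 at D5 and D19, Cd83 at D0 and D19 and Cd274 at D0. Tnfsf9 was at 64.2 against 141 CPM at D5 and at 109 against 29.8 CPM (5 UMIs) at D19. CD80 antibody medians per cell were 78 against 36, 148 against 201 and 51 against 108. The double negative cells were thus a mixed group for some members.

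CD80 protein could be set beside its RNA, and the direction between CD301b+ and XCR1+ mature DCs was not settled, since it turned with the measure. As a share of antibody UMIs other than CD301b and XCR1, CD80 took 11.5%, 8.63% and 10.2% in CD301b+ cells at D0, D5 and D19 and 17.8%, 26.5% and 30.4% in XCR1+ cells. The log2 ratios were -0.63 (-0.70 to -0.56), -1.62 (-1.67 to -1.57) and -1.58 (-1.61 to -1.54). Counted per cell instead, CD301b+ cells carried a mean of 112, 158 and 70.7 CD80 antibody UMIs and XCR1+ cells 61.5, 105 and 52.3, log2 ratios of 0.86, 0.59 and 0.44. The total moved as well: the median antibody UMIs of all kinds were 1123, 2467.5 and 1009 in CD301b+ and 383, 418 and 178.5 in XCR1+ cells. CD11b alone took 47.8%, 47.0% and 43.9% of all antibody UMIs in CD301b+ cells against 5.29%, 11.7% and 11.7% in XCR1+ cells. CD11b stayed in the total of every CD80 share given here. A share without CD11b was not computed, so no size of a protein difference is read from the shares. In B cells CD80 took 23.2%, 23.3% and 42.5% by the same share, at medians of 9, 10 and 7 and means of 31.2, 24.4 and 36.4 CD80 UMIs per cell. B cells were thus above CD301b+ cells in share and below them in count per cell, by mean and by median. Within B cells D19 had the highest share and the highest mean, but the lowest median. UMIs of 1 tag within a cell are not independent cells, so these intervals cover counting only.

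**Figure D4:**
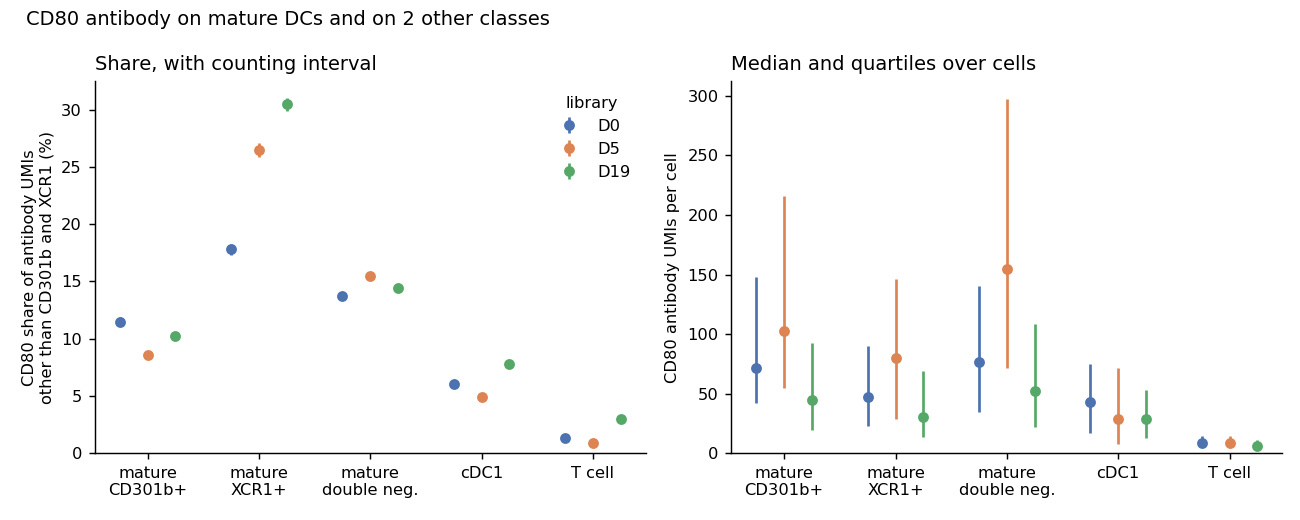
CD80 antibody in 3 groups of mature DCs, cDC1 and T cells (x axes) at D0, D5 and D19, as a percentage of antibody UMIs other than CD301b and XCR1 with its exact 95% interval (left) and as UMIs per cell with the median and quartiles over cells (right). Of these 5 groups, XCR1+ cells have the highest share in each library and double negative cells the highest median per cell.

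Among the 3 groups of mature DCs, the double negative cells carried the most CD80 antibody per cell, with means of 129, 222 and 93.3 UMIs and medians of 77, 155 and 52 at D0, D5 and D19. Per cell, D5 was the highest of their 3 libraries for the antibody as well as for Cd80 RNA, but their antibody UMIs of all kinds ran the same way (medians of 659.5, 1173.5 and 540), and as a share of antibody UMIs other than CD301b and XCR1 CD80 was at 13.8%, 15.5% and 14.4%. The gate of monocytes or macrophages (19, 26 and 24 cells) had higher medians, of 102, 160.5 and 131 UMIs, and T cells, as background, had 9, 9 and 6. In mature DCs with a Cd80 UMI the median CD80 antibody was 101, 233 and 65.5, against 64, 118 and 46 in those without one (25 against 261 cells, 87 against 376 and 56 against 840). At D5, 80 of the 87 cells were double negative, the group with the most antibody, and within that group the medians were 246.5 against 136. The order did not hold in every group: in XCR1+ cells at D0 the median was 13 in the 4 cells with a Cd80 UMI and 49.5 in the 62 without. RNA depth ran the same way, with medians of 9616 against 6448 UMIs, 8076 against 7544.5 and 4614 against 4313, and its part was not tested.

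The wider maturation programme was read through a list of 20 genes, which includes the gate genes Ccr7 and Fscn1 and others known to go with them. Of these, 20, 19 and 20 were past 2-fold higher in mature DCs than in cDC1 at D0, D5 and D19, with medians of 4.48, 4.50 and 4.53, which describes the gate and is no finding about it. Between days in mature DCs, 1 of 20 was past 2-fold lower at D5 than at D0 (Il12b, the p40 chain of IL-12 and IL-23, log2 difference -1.28), 2 were higher at D19 than at D5 (Ccl17, a CCR4 ligand, 1.74, and Il12b, 1.21), and 3 were higher at D19 than at D0 (Ccl17, 2.15, Il15ra, the receptor chain that presents IL-15, 1.33, and Cd200, an inhibitory ligand, 1.09). Of all genes, 1.01%, 1.41% and 3.58% were past 2-fold in either direction in these comparisons. In CD301b+ against XCR1+ cells Ccl17 was higher (1.29, 3.08 and 2.13) and Il12b lower (-2.33, -1.09 and -2.47) in all 3 libraries. None of 8 other ligands with enough UMIs, of 18 listed, was past 2-fold between D0 and D5, and none of 9 between D5 and D19. At D19 against D0, 1 of 8 was past 2-fold higher, which is Cd200, a gene on both lists. Icosl, the ICOS ligand, was at 216, 353 and 364 CPM in mature DCs and past 2-fold above cDC1 in each library (3.09, 3.12 and 3.46). The other ligands as a list went both ways against cDC1. At D0, 4 of 9 were past 2-fold higher and 1 lower, at D5 2 of 8 higher and 2 lower, and at D19 4 of 8 higher and 3 lower. Of all genes, 15.8%, 18.8% and 19.1% were past 2-fold in either direction.

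Receptors for 2 of the TNF family ligands were read in the mature DCs themselves. Tnfrsf4, which encodes the OX40L receptor OX40, was at 256 CPM (234 to 280), 302 (285 to 320) and 214 in mature DCs and at 28.8, 27.2 and 36.9 CPM in T cells. Tnfrsf9, which encodes the 4-1BBL receptor, was at 85.5, 85.5 and 88.0 CPM in mature DCs and at 21.9, 22.4 and 9.59 CPM in T cells. In CD301b+ against XCR1+ cells Tnfrsf4 was at 231 against 561, 208 against 615 and 112 against 521 CPM, log2 differences of -1.25, -1.52 and -2.12. Tnfrsf9, the receptor gene that pairs with Tnfsf9, was at 99.4 against 92.0, 76.8 against 68.6 and 77.4 against 63.1 CPM. The intervals of these Tnfrsf9 levels overlapped in each library.

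Profiles were compared over 29 sums of a class in a library with at least 20 cells and 10527 genes, by Pearson's r of log2 values. The sums share libraries and, for the subsets, cells, and the values are a description. The gene most like Cd40 was Marcksl1 (r = 0.93), for Icam1 Nfkbia (0.93), for Cd274 Sdhaf1 (0.91), for Cd83 Cd40 (0.91), for Cd86 Bcl6 (0.89), for Tnfsf9 Fbrsl1 (0.89), for Cd80 Tbc1d9 (0.84) and for Pdcd1lg2 Dusp2 (0.73). Tnfsf4 had too few UMIs. Among pairs of members r was highest for Cd40 and Cd83 (0.91) and lowest for Pdcd1lg2 and Tnfsf9 (-0.18).

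All 9 genes were placed on the GRCm38.p6 assembly of the mouse genome, which is the mm10 build of the files. Cd80 lies at chr16:38457430-38495958 and Cd86 on the same chromosome at chr16:36568956-36666158. Cd274 (chr19:29362107-29388095) and Pdcd1lg2 (chr19:29410919-29472927) are neighbours. Promoter windows from 250 bases before to 50 after the start were on hand for 4 of the 9 genes (RefSeq, GRCm38.p6). The start is that of 1 transcript, which for Icam1 and Pdcd1lg2 is the first base of the gene and for Cd80 and Cd274 lies further inside the positions given, so those windows do not cover the outermost start. All 4 windows were searched on both strands for GGGNNTTCC and GGANNTTCC, which are short forms of NF-kB sites and were found in 5.72% and 4.24% of 27025 windows. Either form was found in 9.68% of them. Of Cd80, Icam1, Cd274 and Pdcd1lg2, the window of Icam1 alone held one. It is shown because Nfkbia, an NF-kB target, was the gene most like it and held 2 such matches. A part of NF-kB in the Icam1 level was not tested. Capitals mark the match, which fits GGANNTTCC on both strands at the same place and begins at position -153 from the start. The window is chr9:21015690-21015989, plus strand, 5′ to 3′:
Icam1: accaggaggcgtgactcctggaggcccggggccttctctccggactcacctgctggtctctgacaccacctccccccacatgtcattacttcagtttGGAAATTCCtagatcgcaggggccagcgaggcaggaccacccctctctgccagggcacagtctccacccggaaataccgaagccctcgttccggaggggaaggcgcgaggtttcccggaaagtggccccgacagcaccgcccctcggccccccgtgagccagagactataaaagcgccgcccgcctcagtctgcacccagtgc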

How the data were processed

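The authors deposited unfiltered count matrices of the 3 LN CITE-seq libraries (10x Genomics 3' v3.1 chemistry with feature barcoding), whose values are UMI counts per gene and per antibody with no normalization. The submitters' processing notes name Cell Ranger and mm10, and the file headers give Cell Ranger 4; the deposited counts sum to 45317389, 47653941 and 32013882 RNA UMIs over all barcodes at D0, D5 and D19. Barcodes with at least 1000 UMIs, 500 genes and at most 10% mitochondrial UMIs were kept, and the cells with the highest Scrublet doublet scores (scanpy 1.11.5) were left out (342, 312 and 365 cells), at a rate of 0.8% per 1000 cells. Kept cells had median depths of 4768, 4817 and 3233.5 UMIs.

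Cells were gated on RNA, and a cell passing the gates of a DC and of a lymphocyte class was left out. Counts were summed per class and library and scaled to CPM over all UMIs of the class. Poisson, Clopper-Pearson and exact conditional 95% intervals were computed in Python 3.11.15 with numpy 2.4.6, pandas 2.3.3 and scipy 1.17.1. No test was run, since each day is 1 library. Alternatives covered cell filters, gates, depth, weighting, free RNA, the CPM added, the UMI minimum and the antibody share. They were run for mature DCs between days, for mature DCs against cDC1, pDC and B cells, and for CD301b+ against XCR1+ cells. Comparisons with double negative cells, and day changes within subsets, cDC1, pDC or B cells, were read at the main setting only. Named genes were the 9 members, 4 gene lists (other ligands, receptors, maturation programme, dissociation) and the 3 genes most alike to each member. The members, lists and gates were chosen with earlier results of these data known. The liver and γδ T cell files of the series were not used here.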

Additional observations from a re-analysis of the deposited data

Results flagged for a closer look

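Some members moved in opposite directions in 2 classes or 2 days, with intervals that left out equality on each side. None of these differences between differences was tested, because each day is 1 library, and all values below are log2 differences with 10 CPM added.

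Cd86 accounted for most of them. In mature DCs it was higher at D5 than at D0 (0.70) and lower at D19 than at D5 (-0.45), whereas in cDC1 it was lower at D5 (-0.69) and higher at D19 (0.57). B cells went with mature DCs, at 0.15 and -0.35, and so were opposite to cDC1 on both occasions. As a result the difference between mature DCs and cDC1 in Cd86 was -0.66 at D0 and 0.73 at D5. cDC1 had 189 Cd86 UMIs at D0 but 40 at D5 and 47 at D19. Within mature DCs, Cd86 was higher at D19 than at D5 in CD301b+ cells (0.60) and lower in double negative cells (-0.80).

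Cd40 was lower in CD301b+ than in XCR1+ cells at D0 (-0.76) and higher at D19 (0.35). From D5 to D19 it was lower in XCR1+ cells (-0.69) and higher in double negative cells (0.27). Cd80 was lower at D19 than at D5 in mature DCs (-0.71) and higher in B cells (0.21), where it rests on 11 and 14 UMIs. Cd83 was higher at D19 than at D5 in cDC1 (0.65) and lower in B cells (-0.33). Pdcd1lg2 was lower at D19 than at D0 in mature DCs (-0.77) and higher in B cells (0.25).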

How the results depend on the processing

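No paired analysis between days was possible because each day is 1 library, and no replicate was left out for the same reason. Classes and subsets were compared within each library, and the 3 libraries, being of different days, were not used as replicates. Depth was a limit: Tnfsf4 had too few UMIs for a call between classes or subsets, and thinning every cell to 1000 UMIs left 175, 227 and 493 mature DCs and 20, 3 and 6 cDC1. Of 201 member counts over all alternatives, 179 stayed within 1.5 times the main count.

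Between days in mature DCs the count of members past 2-fold went from 0 to 2 at D5 against D0 and from 0 to 1 at D19 against D0 with each cell weighted the same or with 1 CPM added, and from 0 to 1 at D19 against D5 after thinning. Against cDC1, thinning moved it from 6 to 3 at D0, from 6 to 0 at D5 and from 5 to 0 at D19, and Cd40 at D19 turned to -0.20, with 6 cDC1 left. Thinning also moved it against pDC from 8 to 5 at D0 and to 4 at D5, and against B cells from 5 to 3 at D5.

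For CD301b+ against XCR1+ cells the count at D0 went from 3 to 1 with Ccr7 and Fscn1 at 2 UMIs and after thinning. At D5 it went from 1 to 0 without the doublet filter, without cells holding lymphocyte RNA and with a minimum of 50 UMIs, and to 2 with a share of 0.20. Tnfsf9 at D5 turned to -2.28 after thinning, with 0 against 1 UMIs. At D19 it went from 1 to 2 without the doublet filter, with gates in which a cell may pass more than 1 class, after thinning and with a share of 0.05, and to 0 with a share of 0.20, where Tnfsf9 was at 0.96.

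The CD80 antibody log2 ratio turned to 0.86, 0.59 and 0.44 at D0, D5 and D19 when counted per cell. As a share of all antibody UMIs it was -0.78, -1.84 and -1.98, with those gates -0.76, -1.71 and -1.51, after thinning -1.10, -1.51 and -1.36, and with a share of 0.05 -0.56, -1.51 and -1.39. A share of 0.20 gave -1.12 at D0 and -1.74 at D19, and leaving out cells with lymphocyte RNA or CD3 antibody gave -1.68 at D5. The causes of these changes were not tested.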
